A study of Mus musculus with 6 samples.

Results

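Toll-like receptors sense molecules of microbes and of damaged cells, and 9 of them together with their adaptor Myd88 were read from RNA-seq of B16F10 melanomas grown at different sites of the mouse. The members were the 10 rows of the deposited count table whose symbol was Tlr1, Tlr2, Tlr3, Tlr4, Tlr6, Tlr7, Tlr8, Tlr9, Tlr13 or Myd88, out of 45777 genes. B16F10 is a mouse melanoma cell line, and its cells were grafted into the hind footpad (3 tumors) or the flank skin (3 tumors), with 1 library per tumor. Per the labels, every tumor came from a Foxn1-/- mouse aged 8 weeks, and so flank and footpad hosts shared this genotype, in which the thymus does not form. The study grafted this line into both Foxn1-null and C57BL/6J mice, and for the sequenced tumors the host is taken from the labels. The study describes grafting cells into the flank and the footpad of a mouse at the same time, so tumors of different sites may share animals. For the expression of selected genes in these tumors it counts 3 mice. Which tumors shared an animal is not given in the sources used here, and the main test does not pair them. The labels do not say whether the replicates of a site were separate animals, so p-values measure the spread between these tumors.

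Of the receptors, some sit at the cell surface and others in endosomes. Tlr2 pairs with Tlr1 or Tlr6 to bind bacterial lipoproteins, and Tlr4 binds lipopolysaccharide with the help of Ly96 and Cd14. Tlr3 recognizes paired RNA strands, Tlr7 and Tlr8 recognize unpaired RNA, Tlr9 recognizes unmethylated CpG DNA, and Tlr13 recognizes bacterial ribosomal RNA. Myd88 relays the signal of these receptors to the Irak kinases and NF-kB, except for Tlr3, which signals through Ticam1. In tumors, macrophages, neutrophils and dendritic cells are the best known sources of most of these transcripts.

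The depth of the libraries lay between 46529649 and 66364366 reads counted on genes. Levels of a gene are given as CPM, its reads per 1e6 reads of the library after TMM scaling in edgeR. The melanoma markers Mlana, Pmel, Dct, Tyr, Tyrp1, Mitf and Sox10 summed to between 9802 and 24942 CPM per tumor. Footpad replicate 2 stood apart by its keratinocyte markers, which summed to 513 CPM against between 0.103 and 24.6 CPM in the other tumors, and by skeletal muscle markers at 1011 CPM. The 6 T-cell markers listed summed to at most 0.204 CPM. The methods speak of isolated tumor cells without naming a sort. As the tumors were sequenced in bulk, fewer cells of a type and less RNA per cell cannot be told apart.

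The members lie on 6 chromosomes of GRCm38. Tlr1 (chromosome 5, 64924680 to 64933600) and Tlr6 (64953092 to 64970942) are neighbors with 19491 bases between them, and the similar coding sequences of this pair may have shared reads. Tlr8 (chromosome X, 167241123 to 167264329) and Tlr7 (167303380 to 167330574) are also neighbors, and Tlr13 lies elsewhere on X, from 106143275 to 106160493. Myd88 (119335934 to 119340018) and Tlr9 (106222598 to 106226876) are on chromosome 9, Tlr2 (83836272 to 83841824) on chromosome 3, Tlr4 (66827551 to 66846581) on chromosome 4 and Tlr3 (45395665 to 45411075) on chromosome 8. In the GENCODE annotation, genes on the opposite strand overlap Myd88 (Acaa1a), Tlr6 (Fam114a1 and Mir574) and Tlr3 (Gm45542), and Slc22a14 spans Myd88 on the same strand. A stranded kit was used, but whether the counting used the strand is not given in the sources used here, so the values of these 3 members are less certain.

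Sequence upstream of 3 members is shown because their levels did not overlap between the sites and they cover the range seen: Myd88, the member with the smallest p-value, Tlr13, an abundant receptor with a wide difference, and Tlr9, without a read in any flank tumor. Each sequence starts 250 bases before the RefSeq transcript start and runs 5′ to 3′ on the gene's strand (GRCm38.p6), ending where an exon of any GENCODE transcript begins. Capitals mark matches to motifs that were searched on both strands.
Myd88, chr9:119340042-119340268, minus strand: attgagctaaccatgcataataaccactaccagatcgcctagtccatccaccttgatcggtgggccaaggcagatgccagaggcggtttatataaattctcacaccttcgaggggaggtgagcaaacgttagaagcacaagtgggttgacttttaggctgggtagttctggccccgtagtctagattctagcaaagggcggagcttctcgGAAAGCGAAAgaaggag
Tlr13, chrX:106143025-106143203, plus strand: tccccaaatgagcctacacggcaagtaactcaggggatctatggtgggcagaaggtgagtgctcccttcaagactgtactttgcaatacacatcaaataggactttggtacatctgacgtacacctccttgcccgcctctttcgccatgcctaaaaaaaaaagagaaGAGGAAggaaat
Tlr9, chr9:106222348-106222597, plus strand: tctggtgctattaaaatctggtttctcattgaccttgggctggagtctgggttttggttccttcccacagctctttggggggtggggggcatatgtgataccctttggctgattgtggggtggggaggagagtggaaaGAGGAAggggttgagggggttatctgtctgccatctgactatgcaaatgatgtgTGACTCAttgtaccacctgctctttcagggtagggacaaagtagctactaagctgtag
In Myd88 the capitals are a match to the interferon-stimulated response element, which is GAAA, any 2 bases and GAAA again, 40 to 31 bases before the start. In Tlr13 they are the core of the site of PU.1, a factor of myeloid cells, GAGGAA, and in Tlr9 the same core and, closer to the start, the AP-1 site TGANTCA. No 2 of these matches overlap. The search covered the whole window of 250 bases before the start, of which the printed sequence can be a part. Of 32817 such windows in the RefSeq table, 2.97% held the response element, 23.3% the PU.1 core and 6.75% the AP-1 site. The NF-kB pattern, GGG, any 5 bases and CC, which 45.8% of all windows held, was in none of the 3. A promoter sequence was matched for 8 of the 10 members, and Tlr4 and Tlr7 were not matched. Over these 8 members, the PU.1 core was in windows of Tlr1, Tlr8, Tlr9 and Tlr13, the response element in those of Tlr6 and Myd88, the AP-1 site in that of Tlr9 and the NF-kB pattern in those of Tlr2, Tlr3 and Tlr6.

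Tlr4 and Myd88 were the most abundant members, and most receptors were rare. Levels of different genes are compared as FPKM, the deposited values per length of transcript. Tlr4 ranged from 9.49 to 12.8 FPKM over the 6 tumors, above every value of Myd88, which ranged from 2.76 to 9.25 FPKM. Tlr3 followed with 2.85 to 3.58 FPKM, below Myd88 in every tumor except flank replicate 1. Tlr13 (0.228 to 5.54 FPKM) and Tlr2 (0.0308 to 2.90 FPKM) overlapped with each other and with Tlr3. The levels of Tlr6 (0.226 to 0.924), Tlr1 (0.0835 to 0.776), Tlr7 (0.0239 to 0.627) and Tlr8 (0.0309 to 0.614 FPKM) overlapped widely, so that their order by mean is not resolved. Tlr9 was lowest, with at most 0.158 FPKM.

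**Figure D1:**
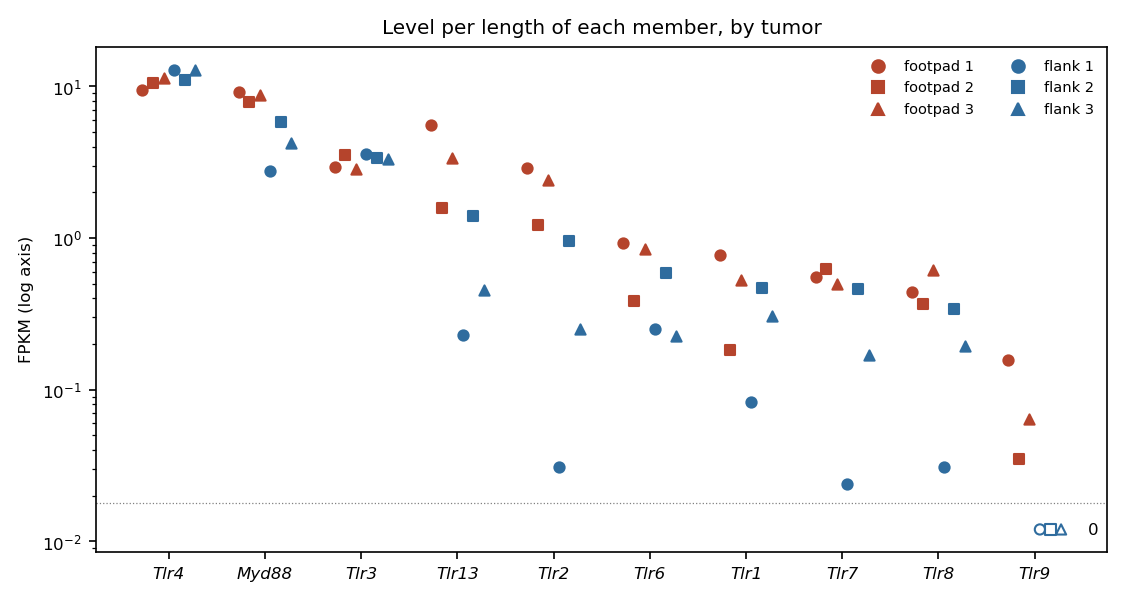
FPKM of each member in each tumor on a log axis, with members ordered by their mean over the 6 tumors, colors for the site and symbols for the replicate; open symbols below the dotted line are listed at 0. Tlr4 and Tlr3 stay within a narrow band in all tumors, whereas Tlr2, Tlr13, Tlr7 and Tlr8 are lowest in flank replicate 1.

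By edgeR's quasi-likelihood test, 0 of the 9 members that passed the filter on low counts were called (adjusted p below 0.05 and at least a 2-fold change), where 3.76% of the 17210 genes tested were called. Tlr9, with few reads, did not pass this filter. At an unadjusted p under 0.05, 5 of the 9 were higher in footpad tumors (Tlr2, Tlr6, Tlr7, Tlr13 and Myd88), where 14.8% of all genes were. At the same threshold 0 were lower, where 1804 of the 17210 genes tested were (25.3% of all genes were either higher or lower). DESeq2, with which the study normalized its counts and adjusted its p-values, called 4 of 10 higher (Tlr7, Tlr9, Tlr13 and Myd88). Over all genes it called 6.05% higher and 7.89% in either direction. Every footpad tumor lay above every flank tumor for 5 of the 9 tested members and also for Tlr9, where 17.5% of all genes tested did so.

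**Figure D2:**
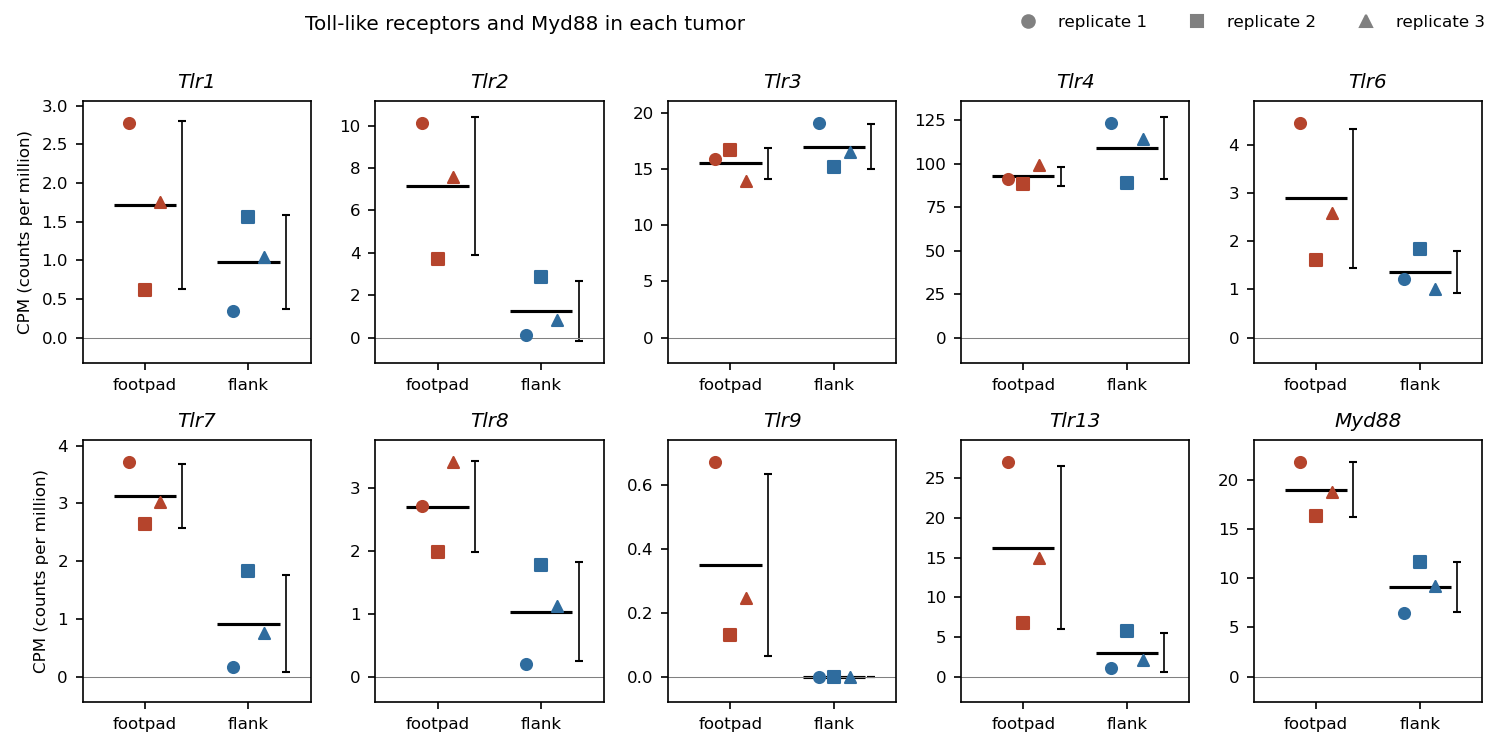
CPM of each member in the 3 footpad and 3 flank tumors (symbols by replicate), with the mean as a line and the SD as a bar, each panel on its own scale. The sites do not overlap for Tlr2, Tlr7, Tlr8, Tlr9, Tlr13 and Myd88, and they overlap for Tlr1, Tlr3, Tlr4 and Tlr6.

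Myd88, the adaptor, had the smallest p-value of the members and missed the threshold narrowly. It had footpad values (replicates 1, 2 and 3, here and for the genes that follow) of 21.9, 16.3 and 18.8 CPM and flank values of 6.52, 11.6 and 9.19 CPM. All footpad tumors were above all flank tumors, and flank replicate 1 was lowest. The means were 19.0 ± 2.80 and 9.12 ± 2.57 CPM (SD, n = 3), a log2 fold change of 1.06 (SE, standard error, 0.25, edgeR adjusted p = 0.0530, and between 0.00142 and 0.169 over the alternatives). With a filter of 10 counts in every tumor, the adjusted p was 0.0421 from edgeR, and DESeq2 gave 0.00169.

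Among the surface receptors, Tlr2 had the widest difference and Tlr4 the narrowest. Tlr2 had footpad values of 10.1, 3.70 and 7.59 CPM and flank values of 0.121, 2.86 and 0.815 CPM. The sites did not overlap, but footpad replicate 2 and flank replicate 2 were close, and the low value of flank replicate 1 rested on 7 reads. The log2 fold change was 2.50 (SE 0.93, edgeR adjusted p = 0.151), and 3.91 without flank replicate 2 and 1.96 without flank replicate 1. DESeq2 gave an adjusted p of 0.133 with its own filter (unadjusted p = 0.0257, 19784 genes adjusted). When run on the genes that passed the filter of edgeR (17158 adjusted), it gave 0.0163. This run was added after the data were seen. Its adjusted p lies below the unadjusted p of the first run, so the fit changed and not only the number of genes adjusted.

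The partners of Tlr2 overlapped between the sites. Tlr6 had footpad values of 4.47, 1.62 and 2.59 CPM and flank values of 1.22, 1.85 and 1.01 CPM, so that the sites overlapped by footpad replicate 2 (log2 fold change 1.09, SE 0.45, edgeR adjusted p = 0.187). Tlr1 had footpad values of 2.78, 0.613 and 1.76 CPM and flank values of 0.345, 1.56 and 1.04 CPM. It spanned 4.54-fold within the footpad and 4.51-fold within the flank, the sites overlapped, and its log2 fold change of 0.80 (SE 0.69, edgeR adjusted p = 0.501) became 0.26 without footpad replicate 1. The ratio of Tlr2 to the sum of Tlr1 and Tlr6, taken from FPKM, was 1.71, 2.14 and 1.76 in the footpad tumors and 0.0918, 0.902 and 0.474 in the flank tumors, without overlap (no two-sided exact permutation test of 3 against 3 can go below p = 0.1).

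Tlr4, the lipopolysaccharide receptor, had footpad values of 91.4, 88.5 and 99.1 CPM and flank values of 124, 89.2 and 114 CPM. The sites overlapped, and the footpad mean of 93.0 ± 5.46 CPM lay below the flank mean of 109 ± 17.9 CPM (SD, n = 3) by less than the spread of the flank tumors. Its log2 fold change was -0.23 (SE 0.15, edgeR adjusted p = 0.391). Melanoma markers were also highest in flank replicate 1, the tumor with the most Tlr4, at 24942 CPM. They were next highest in footpad replicate 2, the tumor with the least Tlr4, at 17943 CPM. The part of melanoma cells in the level of Tlr4 was not tested.

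Of the endosomal receptors, Tlr3 overlapped between the sites and the others did not. Tlr3, which binds paired RNA strands, had footpad values of 15.8, 16.7 and 13.9 CPM and flank values of 19.1, 15.2 and 16.5 CPM (log2 fold change -0.13, SE 0.16, edgeR adjusted p = 0.654). The values overlapped and varied little. Tlr13, the receptor of bacterial ribosomal RNA, had footpad values of 27.1, 6.77 and 14.9 CPM and flank values of 1.12, 5.78 and 2.08 CPM. The sites did not overlap, but footpad replicate 1 was 4.01 times as high as footpad replicate 2, which lay close to flank replicate 2. The means of 16.3 ± 10.3 and 2.99 ± 2.46 CPM (SD, n = 3) gave a log2 fold change of 2.44 (SE 0.70, edgeR adjusted p = 0.0845 and 0.0345 from DESeq2, and between 0.000955 and 0.251 over the alternatives).

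Tlr7 and Tlr8, the neighbors on chromosome X, had similar values. Tlr7 had footpad values of 3.73, 2.64 and 3.02 CPM and flank values of 0.172, 1.83 and 0.751 CPM (log2 fold change 1.77, SE 0.71, edgeR adjusted p = 0.177 and 0.0473 from DESeq2, and between 0.0473 and 0.369 over the alternatives). Tlr8 had footpad values of 2.72, 1.98 and 3.43 CPM and flank values of 0.207, 1.78 and 1.12 CPM (log2 fold change 1.39, SE 0.67, edgeR adjusted p = 0.245). For both genes the sites did not overlap, and the flank tumors spread 10.6-fold for Tlr7 and 8.60-fold for Tlr8. The footpad tumors spread 1.41-fold for Tlr7 and 1.73-fold for Tlr8, and for Tlr8 footpad replicate 2 lay close to flank replicate 2.

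Tlr9, the receptor of CpG DNA, had 30, 9 and 12 reads in footpad replicates 1, 2 and 3 and 0 reads in each flank tumor. A count of 3 reads, taken as the limit of detection in a library, equalled between 0.0438 and 0.0673 CPM. The footpad mean of 0.350 ± 0.286 CPM (SD, n = 3) was at least 6.95-fold higher than the mean of this limit over the flank libraries, and at least 3.74-fold without footpad replicate 1. At these counts a flank level under the limit was not detectable. The edgeR test did not include the gene, and DESeq2 gave an adjusted p of 0.00286.

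**Figure D3:**
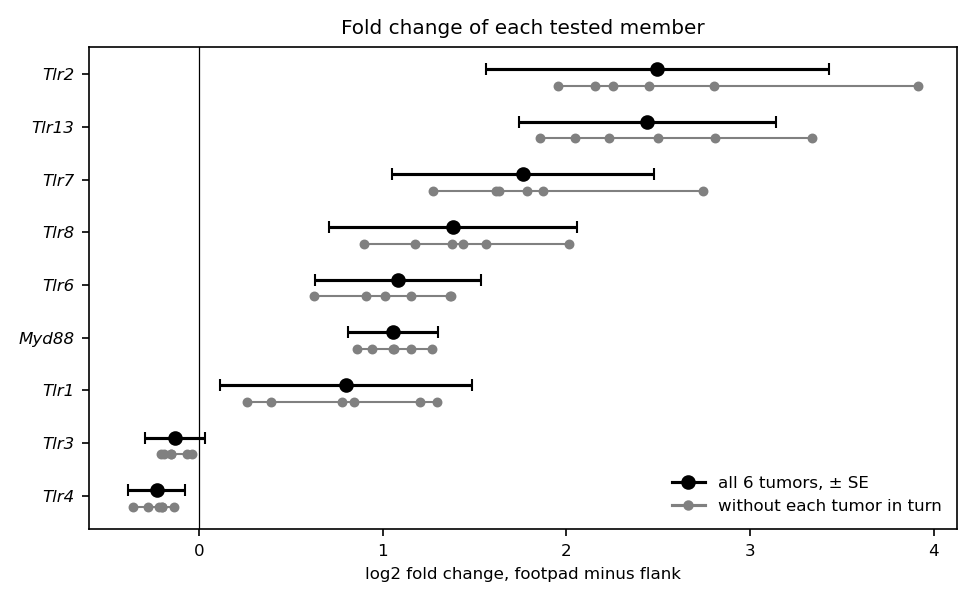
Log2 fold change (footpad minus flank) of the 9 tested members from edgeR with all 6 tumors, with the standard error as a bar (black), and without each tumor in turn (grey). Tlr3 and Tlr4 stay just below 0 in every fit and the other 7 above it, and the widest range is that of Tlr2, from 1.96 to 3.91.

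Among these fits the log2 fold change was highest without flank replicate 2 for Tlr7 (2.74), Tlr8 (2.02) and Tlr13 (3.34). It was lowest without flank replicate 1 for Tlr7 (1.27) and Tlr8 (0.90), and without footpad replicate 1 for Tlr13 (1.86).

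The composition of the receptors also differed between the sites. Tlr4 made up 40.0%, 57.0% and 50.5% of the summed FPKM of the 9 receptors in the footpad tumors (replicates 1 to 3), against 75.2%, 59.1% and 72.3% in the flank tumors. The sites did not overlap, though footpad replicate 2 and flank replicate 2 were close. The 7 receptors other than Tlr3 and Tlr4 made up 47.6%, 23.8% and 36.9% in the footpad tumors against 3.80%, 22.8% and 9.04% in the flank tumors. The sum of all 9 receptors, which Tlr4 dominates, was 21.6 ± 2.77 FPKM in footpad and 17.8 ± 0.735 FPKM in flank tumors (SD, n = 3), with overlap by footpad replicate 2.

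Single tumors set the ends of the range for most members. Of the 9 members with a read in every tumor, flank replicate 1 had the lowest level of 6 (Tlr1, Tlr2, Tlr7, Tlr8, Tlr13 and Myd88) and the highest level of 2 (Tlr3 and Tlr4). Among all genes tested, this tumor was lowest for 24.5% and highest for 23.9%. For 6 members the highest value was that of footpad replicate 1, which held it for 23.1% of all genes.

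Macrophage, monocyte and neutrophil markers also had higher values in several footpad tumors. Csf1r, the receptor of the macrophage growth factor, had footpad values of 15.2, 14.8 and 13.0 CPM and flank values of 0.655, 12.04 and 4.94 CPM, without overlap (edgeR adjusted p = 0.351). In the flank it was lowest in replicate 1, like Tlr1, Tlr2, Tlr7, Tlr8, Tlr13 and Myd88. The macrophage markers Adgre1, Mrc1, Fcgr1, C1qa, C1qb, C1qc and Cd163 were also lowest there among the flank tumors (0.241 to 6.52 CPM). Only Cd68 (8.80, 6.89 and 4.43 CPM) and Mertk (134, 91.9 and 89.6 CPM) of the list were highest there. Of the 10 macrophage markers tested, 1 was called higher (Cd68, a lysosomal protein, with a log2 fold change of 1.51 and an adjusted p of 0.0429 from edgeR), where 2.89% of all genes were, and 4 of 10 lay higher in every footpad tumor than in any flank tumor, where 17.5% of all genes did. The summed list ranged from 208 to 221 CPM in footpad and from 151 to 203 CPM in flank tumors, with Mertk, at 79.2 to 134 CPM, the largest part. Mertk had a log2 fold change of -0.19 (edgeR adjusted p = 0.607) and gave 134 of the 159 CPM of flank replicate 1. The sum therefore shows little of the low values of most other macrophage markers in that tumor. Monocyte markers summed to 55.5, 12.3 and 39.1 CPM in the footpad tumors and 5.16, 14.4 and 3.05 CPM in the flank tumors. Of the 5 markers, 3 were higher at an unadjusted p under 0.05 in edgeR (smallest adjusted p = 0.0849), where 14.8% of all genes were. Neutrophil markers summed to 377, 7.19 and 183 CPM in the footpad tumors and to between 4.76 and 31.2 CPM in the flank tumors, with Ly6g and Camp at or near 0. The part of these cells in the levels of the receptors was not tested.

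Markers of plasmacytoid dendritic cells, which are known for Tlr9 and Tlr7, were low in most of these libraries. Siglech, a marker of plasmacytoid dendritic cells, was at most 0.599 CPM, and the 6 markers of that list summed to between 1.62 and 2.96 CPM in all tumors but footpad replicate 2, where Ly6d, which keratinocytes also express, brought the sum to 14.8 CPM. Markers of classical dendritic cells summed to between 11.1 and 15.3 CPM, mostly Zbtb46, with Xcr1 at 0 reads in all tumors but flank replicate 2. The markers of NK cells summed to at most 0.481 CPM, and those of mast cells to between 0.241 and 25.1 CPM, nearly all of it Hdc. Fibroblast markers summed to between 1289 and 1697 CPM in footpad and between 60.1 and 230 CPM in flank tumors, and 7 of 8 were called higher. Endothelial markers summed to between 136 and 220 CPM against 75.1 to 99.3 CPM, and 3 of 7 were called higher. Over all genes tested, 2.89% were called higher.

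**Figure D4:**
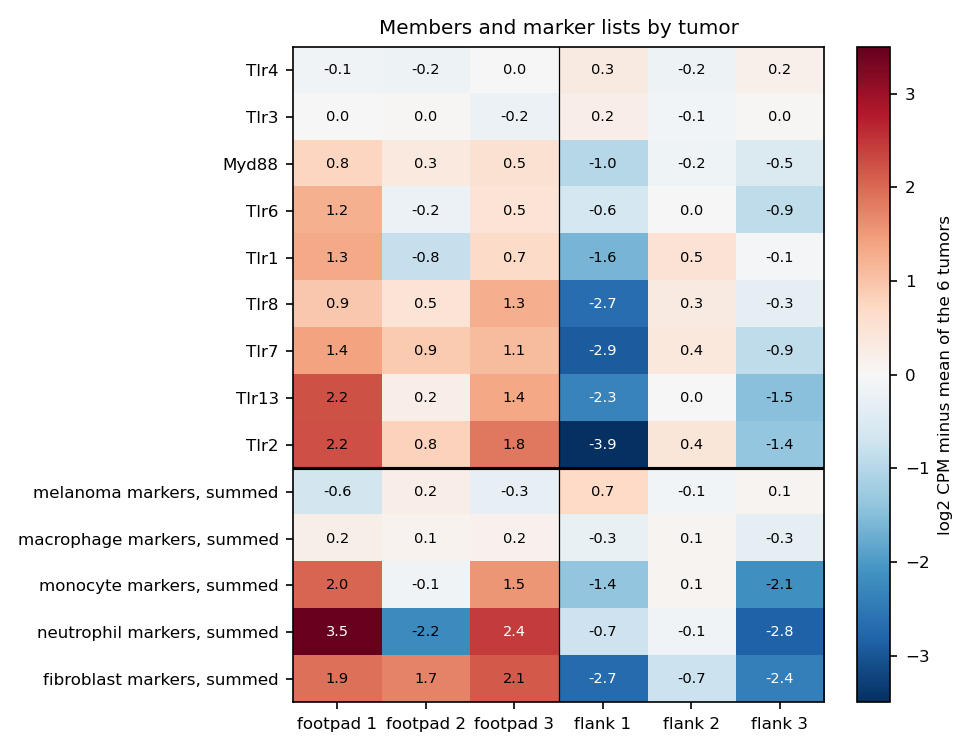
Log2 CPM of the 9 tested members (above the line; prior count of 1) and log2 of the summed CPM of 5 marker lists (below) in each tumor, each row centred on its mean over the 6 tumors. Tlr2 spans from 2.25 in footpad replicate 1 to -3.95 in flank replicate 1, whereas Tlr3 and Tlr4 stay between -0.2 and 0.3. In the macrophage row, Mertk gives 134 of the 159 CPM of flank replicate 1.

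Of the rest of the mouse family, Tlr5 was tested and Tlr11 and Tlr12 had too few reads. Tlr5, the flagellin receptor, had footpad values of 0.629, 0.248 and 0.470 CPM and flank values of 0.103, 0.137 and 0.0959 CPM, without overlap (log2 fold change 1.97, SE 0.58, edgeR adjusted p = 0.0880). Tlr11 had 2 reads in footpad replicate 3 and 6 in flank replicate 2. Tlr12 had 0 reads in the footpad tumors and 6 and 4 reads in flank replicates 2 and 3, and no fold is given for either gene.

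The other genes of the pathway were taken from lists by role. Of 60 genes, 56 were tested, and 2 were called higher and 1 lower in footpad tumors, where 2.89% and 0.872% of all genes were. The median log2 fold change of the 56 was 0.32 against -0.0042 over all genes tested. Of the 56 values, 46 were positive and 10 negative, where 8551 and 8659 of all genes tested were. DESeq2 called 11 higher and 1 lower, among them Cd14, Lbp, Slc15a3, Pik3ap1 and Irak2. Over all genes it called 6.05% higher and 7.89% in either direction. In edgeR, none of the list passed without footpad replicate 1, footpad replicate 3, flank replicate 1 or flank replicate 3. In these fits 15, 17, 22 and 15 of the 56 were higher at an unadjusted p under 0.05. Over all genes 1938, 2061, 2550 and 1943 were, of 17889, 17969, 17753 and 17876 tested. Without footpad replicate 2, 8 of the list were called higher, where 639 of 17639 genes were. Sigirr was called in that fit and in none of the other 5 that left out a tumor.

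The 3 genes called by edgeR were Irf5, Sigirr and Il1rl1. Irf5, a transcription factor that Myd88 activates, had footpad values of 10.7, 4.94 and 7.06 CPM and flank values of 0.862, 2.22 and 1.36 CPM (log2 fold change 2.35, SE 0.44, edgeR adjusted p = 0.0340). Sigirr, an inhibitory receptor of the same superfamily, was the gene called lower, with footpad values of 2.67, 4.30 and 2.84 CPM and flank values of 14.2, 7.24 and 8.29 CPM (log2 fold change -1.60, SE 0.34, edgeR adjusted p = 0.0441). Il1rl1, the receptor of interleukin-33, which several leukocytes and stromal cells also carry, had footpad values of 26.2, 2.83 and 87.6 CPM and flank values of 0.0862, 0.872 and 0.0639 CPM (log2 fold change 6.83, SE 1.47, edgeR adjusted p = 0.0448). For each of the 3 genes the sites did not overlap, and Il1rl1 varied most within the footpad.

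**Figure D5:**
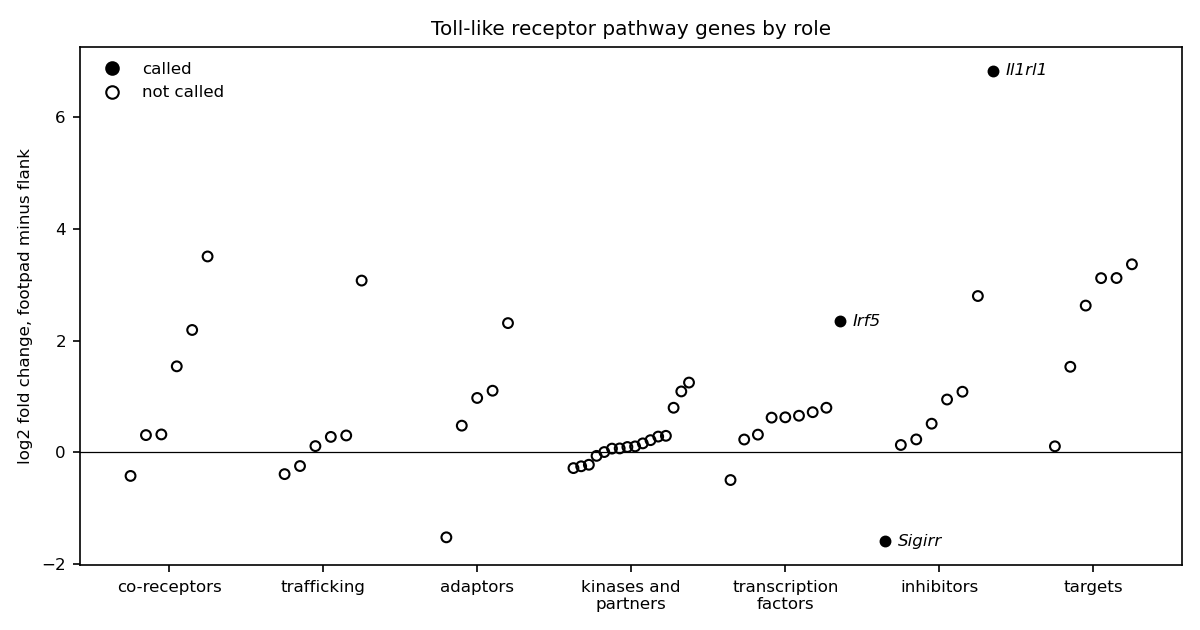
Log2 fold change (footpad minus flank) from edgeR of the 56 tested pathway genes by role, with each circle 1 gene and filled circles the genes called. Irf5 and Il1rl1 lie above 0 and Sigirr below it, and the kinases range from -0.28 to 1.25.

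Genes that act beside the receptors gave values on both sides. Of the 6 co-receptors tested, 0 were called by edgeR and 3 were higher at an unadjusted p under 0.05, where 14.8% of all genes were. Cd14, the co-receptor of Tlr4 and Tlr2, had footpad values of 49.6, 5.18 and 23.5 CPM and flank values of 0.535, 4.88 and 1.47 CPM (log2 fold change 3.51, SE 0.99, edgeR adjusted p = 0.0816 and 0.0212 from DESeq2). Lbp, which carries lipopolysaccharide to Cd14, had a log2 fold change of 2.19, and Ly96, the partner of Tlr4, one of -0.42 (adjusted p = 0.0747 and 0.426 from edgeR).

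Of the 6 trafficking genes, Slc15a3, an endosomal peptide transporter, had a log2 fold change of 3.07 (adjusted p = 0.0514 from edgeR and 7.7e-06 from DESeq2), and Hsp90b1, the chaperone of the receptors, one of -0.39 (adjusted p = 0.175 from edgeR). Of the 5 other adaptors, Pik3ap1 had the widest difference, 2.31 (adjusted p = 0.106 from edgeR), and Sarm1 was at -1.52 (adjusted p = 0.103 from edgeR). Unc93b1, which brings receptors to endosomes, had overlapping values and a log2 fold change of 0.30 (adjusted p = 0.414 from edgeR).

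Of the 16 kinases and their partners, the log2 fold changes ran from -0.28 to 1.25, with 12 positive and 4 negative. Irak2 and Btk had the widest differences, 1.09 and 1.25 (adjusted p = 0.0663 and 0.229 from edgeR), and Irak1 and Irak4, which bind Myd88, had 0.16 and 0.30 (adjusted p = 0.533 and 0.290 from edgeR). Of the 9 transcription factors, Nfkb2 passed the p threshold with a change of less than 2-fold (0.72 on the log2 scale, edgeR adjusted p = 0.0399), and after Irf5 the widest difference was that of Relb, 0.80 (adjusted p = 0.0995 from edgeR). Of the other inhibitors, Irak3, a myeloid inhibitor of the Irak kinases, had 2.80 (adjusted p = 0.0639 from edgeR).

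Of the 10 target genes, 6 were tested and 0 were called by edgeR. At an unadjusted p under 0.05, 3 were higher, where 14.8% of all genes were. Acod1 and Ptgs2, which macrophages induce upon stimulation, had log2 fold changes of 3.37 and 3.12 (adjusted p = 0.205 and 0.169 from edgeR). DESeq2 called Nos2 and Zc3h12a. Il12b and Marco had 0 reads in every tumor, and Ifnb1, which Tlr3 and Tlr4 can induce, had 2 reads in footpad replicate 3 and 0 in the other tumors. Il10 had 4 and 3 reads in footpad replicates 1 and 3 and 0 in the other tumors.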

How the data were processed

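RNA of 3 footpad and 3 flank B16F10 tumors was analysed, grouped by the sample labels. From a stranded total RNA kit, the authors obtained reads that went through Trimmomatic and, for alignment to mm10, HISAT2 2.1.0 (per the submitters' processing notes). The deposited table holds unnormalized whole-number read counts for each gene. The deposited FPKM values are scaled for length and depth. Which program counted, and how it handled multi-mapping reads, is not given in the sources used here. Counts were tested with edgeR 4.0.16 in R 4.3.3 (filterByExpr, TMM, glmQLFit, glmQLFTest, Benjamini-Hochberg over 17210 genes). Calls needed an adjusted p below 0.05 and at least a 2-fold change, the thresholds of the study, and the standard error is the log2 fold change over the square root of F. The common biological coefficient of variation was 0.338. Alternatives were DESeq2 1.42.0, other filters and scaling, limma 3.58.1 on log2(FPKM + 1) and log2(FPKM + 0.1), the replicate number as a block, and leaving out each tumor; the fits were tested on simulated data. Pathway genes named are those called and, per role, the 2 with the widest difference; Ly96, Unc93b1, Irak1, Irak4, Nfkb2, Nos2, Zc3h12a and the untested targets were named after their values were seen. Members, gene lists and tests were chosen with earlier results of these data known. Coordinates and promoters are from RefSeq (GRCm38.p6), in which 45679 of 45777 genes matched, and overlaps from GENCODE M21.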

Additional observations from a re-analysis of the deposited data

How the results depend on the processing

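The number of genes called in the whole table was 497 higher and 150 lower in the main edgeR test. It was 1196 and 365 with DESeq2 and its own filter (19784 genes adjusted), 1154 and 352 with DESeq2 on the genes that passed the filter (added after the data were seen), 189 and 59 with limma on log2(FPKM + 1), and 248 lower at any fold. With 10 counts in every tumor, 557 higher and 161 lower were called of 14826 genes tested. Limma on log2(FPKM + 0.1) called 658 higher and 210 lower of 17210. Of the members, DESeq2 called 4 higher (3 on the filtered genes) and a filter of 10 counts in every tumor 1 of 8 tested, and 0 were called lower by any alternative. Of the pathway genes, 11 were called higher by DESeq2 under either filter, 4 with 10 counts in every tumor, 1 by limma on log2(FPKM + 1), which called 0 lower, and 5 by limma on log2(FPKM + 0.1).

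The replicate number as a block gave 0 calls in either direction for all genes, members and pathway genes, while at an unadjusted p under 0.05 there were 2125 higher and 1426 lower. The deviations of same-numbered tumors from their site means had correlations of 0.0544, -0.0965 and -0.115, no tumor correlated best with its own number, and the numbers were not taken as pairs. Leaving out each tumor in turn gave 0 to 639 higher and 0 to 197 lower genes (lowest without footpad replicate 3, highest without footpad replicate 2), 0 members, and 0 to 8 higher and 0 to 1 lower pathway genes. The log2 fold change of no tested member changed its sign under the alternatives run. With 3 tumors per site, the difference of Tlr1 was within the spread of the tumors, and Tlr2 could not be tested with the filter of 10 counts.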

Other observations

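The genes whose pattern over the 6 tumors was closest to that of a member were found by the root mean square difference of centred log2 CPM, over 13602 candidate genes with a mean of at least 1 CPM. It is given as a description over 6 tumors that share libraries. Closest to Myd88 were Rhbdf1, Sh3bp2 and Col4a1, with differences from 0.088 to 0.0976 on the log2 scale, where Myd88 itself deviated by 0.61 from its mean. Closest to Tlr2 were Nfam1, Ccr2 and Tgfbi (0.19, 0.25 and 0.28, where Tlr2 deviated by 2.11), and Ccr2 is the receptor of monocyte chemokines. Closest to Tlr13 were Lgr6, Pirb and Ncf4 (0.15, 0.20 and 0.22), the last a subunit of the phagocyte oxidase. Cybb, another subunit of this oxidase, was among the closest for both Tlr7 (0.27) and Tlr8 (0.28), beside Pik3cg and Pid1 for Tlr7 and Cxcl16 and Tek for Tlr8. Closest to Tlr4 were H1f0, Hax1 and Mrpl53 (0.028 to 0.047), and to Tlr3 Pex16, Plekhm2 and Ccdc181 (0.039 to 0.042), genes that varied as little as these members. Closest to Tlr6 were Dock6, Gm46583 and Inf2 (0.12 to 0.14), and to Tlr1 Gm33320, Dll1 and Zfp536 (0.23 to 0.33). Between members, the closest were Tlr3 and Tlr4 (0.15) and Tlr7 and Tlr8 (0.36), and the farthest Tlr2 and Tlr4 (2.27).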
